A study of Mus musculus with 9 samples.

Results

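Gene expression in whole lungs of mice given lipopolysaccharide (LPS) and inhaled panaxadiol was compared with that in lungs of mice given LPS alone. Panaxadiol (PD) is a ginseng sapogenin, and LPS is an endotoxin from the outer membrane of Gram-negative bacteria. Polyadenylated RNA was sequenced from 9 mouse lung libraries, 3 in each of 3 groups: LPS plus PD (LPS with PD at 10 mg/mL as an inhaled aerosol), LPS (50 µg per mouse) and control (sterile saline). PD in the labels was taken to stand for the panaxadiol named in the title. All animals were labelled as female and 12 weeks old, and the design gives 6 animals per group. The sources used here do not state the strain, the route of LPS, when lungs were taken or which animals made up each library, so p-values reflect only how these libraries vary, in part perhaps for technical reasons. The members of the comparison were the 16227 genes of 32114 in the table with a mean of at least 0.5 FPKM, a read density scaled to gene length and sequencing depth, over the 9 libraries. Of these, 13607 are protein-coding.

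LPS is sensed by the TLR4 and MD-2 receptor complex on macrophages, endothelium and epithelium, which activates NF-kB and leads to release of TNF, IL-1, IL-6 and neutrophil-attracting chemokines. TNF acts through the receptors Tnfrsf1a and Tnfrsf1b and sustains the same programme. IL-7 is a survival cytokine of lymphocytes that signals through Il7r and Il2rg to JAK kinases and STAT5. The series title names TNF and IL-7 signalling as the pathways under study.

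The libraries held an estimated 15.2 to 19.2 M reads, read from the step size of the FPKM values of single-exon genes. One library, LPS replicate 2, was unlike the rest. It correlated with its nearest neighbour at 0.914, whereas the other 8 libraries each reached at least 0.971. Among the 6 libraries compared, it was the highest in 22.7% of genes and the lowest in 43.7%. Most list medians and some of the differences are therefore given with and without it. Where only 1 value is given, it includes this library. The label of female animals did not match the sex-linked transcripts: Xist lay between 0.0183 and 0.0895 FPKM, while the Y-linked genes Ddx3y and Eif2s3y lay between 15.4 and 31.9 FPKM and between 16.5 and 28.5 FPKM in the 9 libraries. Lung markers were abundant throughout, with Sftpa1, a surfactant protein of alveolar type 2 cells, between 517 and 1140 FPKM.

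No gene differed between LPS plus PD and LPS at an adjusted p of 0.05 (limma on log2(FPKM + 1), Benjamini-Hochberg over 16227 genes; 0 genes, 0% of those tested). The smallest adjusted p was 0.132. At an unadjusted p under 0.05, 369 genes were higher in LPS plus PD (2.27%) and 284 were lower (1.75%), 653 in all. That total was 1759 without LPS replicate 3 and 2159 with array weights. The libraries of the groups did not overlap for 648 genes higher in LPS plus PD (3.99%) and 653 lower (4.02%). The median difference over all genes was 0.03 on the log2 scale, and -0.01 without LPS replicate 2. For 12977 genes (80.0%) the unadjusted 95% interval of the difference lay within 2-fold in either direction. Of the 175 genes with an estimate past 2-fold, 96 were higher and 79 lower in LPS plus PD, and without LPS replicate 2 the counts were 143 higher and 73 lower. LPS replicate 2 was the highest of the 6 libraries in 56 of those 79 and the lowest in 45 of those 96.

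The genes of the series title did not separate the groups by the adjusted test. Tnf (GRCm38 chromosome 17, 35199381 to 35202007, minus strand), the cytokine itself, had 4.08, 1.52 and 1.81 FPKM in LPS plus PD lungs, against 3.18, 83.8 and 4.52 FPKM in LPS lungs and 0.254, 0.660 and 0.530 FPKM in control lungs. The LPS value of 83.8 FPKM came from replicate 2, and the other LPS libraries lay within or just above the range of LPS plus PD. The difference was -1.92 ± 0.97 (SE; 95% interval -4.11 to 0.27; limma adjusted p = 0.866), and -0.54 without LPS replicate 2.

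The TNF receptors overlapped between the groups. Tnfrsf1b, the receptor found mainly on immune and endothelial cells, had 27.4, 16.4 and 26.1 FPKM in LPS plus PD, against 17.3, 123 and 29.8 FPKM in LPS. Its difference was -0.80 ± 0.59 (SE), and -0.00 without LPS replicate 2. Tnfrsf1a, the widely expressed receptor, had 101, 96.3 and 88.0 FPKM in LPS plus PD, against 91.5, 115 and 93.3 FPKM in LPS. Its difference was -0.06 ± 0.15 (SE; 95% interval -0.40 to 0.27), and 0.038 without LPS replicate 2.

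Il7r (chromosome 15, 9505788 to 9530176, minus strand), the IL-7 receptor chain of lymphocytes, had 1.27, 1.57 and 1.31 FPKM in LPS plus PD, against 2.62, 4.65 and 1.72 FPKM in LPS and 1.35, 0.833 and 1.70 FPKM in control. The LPS plus PD and LPS libraries did not overlap, and LPS plus PD lay inside the control range. The difference was -0.68 ± 0.26 (SE; 95% interval -1.27 to -0.09), with a limma p of 0.0279 before and 0.866 after adjustment, and -0.40 without LPS replicate 2. Il7 itself was low, at 0.693, 0.720 and 0.671 FPKM in LPS plus PD, against 0.857, 0.672 and 0.401 FPKM in LPS. Its difference was 0.05 ± 0.14 (SE). Il2rg, the second chain of the IL-7 receptor, had 20.9, 17.6 and 25.4 FPKM in LPS plus PD, against 14.4, 55.8 and 18.8 FPKM in LPS. Of 12 JAK and STAT5 signalling genes, 0 passed the adjusted test and no member's libraries were free of overlap.

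**Figure D1:**
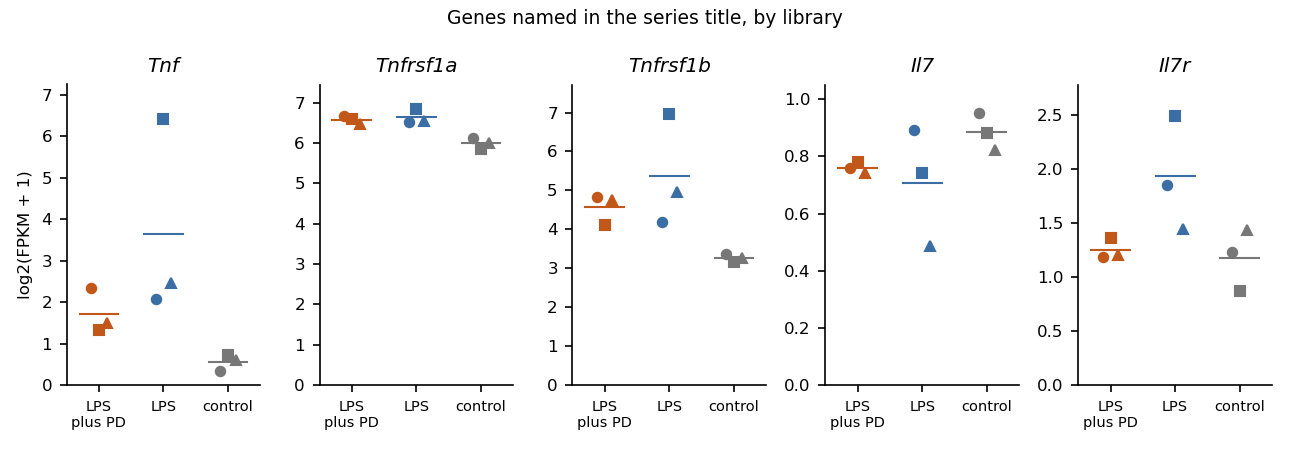
Expression of the 5 genes of the series title as log2(FPKM + 1) (y axis, 1 scale per gene) in LPS plus PD, LPS and control libraries; points are libraries (circle, square and triangle for replicates 1, 2 and 3) and lines are group means of 3. The square of LPS replicate 2 lies far above the other LPS libraries for Tnf and Tnfrsf1b, and the LPS plus PD points for Il7r lie below all LPS points.

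Lif had the smallest p of the pro-inflammatory cytokine list. Lif, an IL-6 family cytokine (chromosome 11, 4257557 to 4272514, plus strand), had 2.48, 1.68 and 2.0 FPKM in LPS plus PD, against 4.41, 5.27 and 4.07 FPKM in LPS and 3.48, 4.23 and 3.13 FPKM in control. All LPS plus PD libraries lay below all 6 others. The difference was -0.87 ± 0.16 (SE; 95% interval -1.23 to -0.52; limma adjusted p = 0.811), and -0.79 without LPS replicate 2. Il33, an epithelial alarmin, had 16.7, 18.8 and 14.9 FPKM in LPS plus PD, against 10.6, 10.4 and 14.4 FPKM in LPS, a difference of 0.48 ± 0.16 (SE).

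The 250 bases before the RefSeq start (GRCm38.p6) of Lif and of the title genes Tnf and Il7r are shown because these genes carry the cytokine comparison. Capitals mark matches, on either strand, of the NF-kB-type pattern GGGNNNNNCC and of TATAAA; matches can overlap each other.
Lif, chr11:4257318-4257567, plus strand: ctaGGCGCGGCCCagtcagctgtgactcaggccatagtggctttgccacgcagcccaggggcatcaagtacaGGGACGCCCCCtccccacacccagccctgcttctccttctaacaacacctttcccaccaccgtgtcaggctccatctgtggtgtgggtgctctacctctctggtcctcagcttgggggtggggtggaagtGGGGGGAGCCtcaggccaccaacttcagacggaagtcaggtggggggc
Tnf, chr17:35202008-35202257, minus strand: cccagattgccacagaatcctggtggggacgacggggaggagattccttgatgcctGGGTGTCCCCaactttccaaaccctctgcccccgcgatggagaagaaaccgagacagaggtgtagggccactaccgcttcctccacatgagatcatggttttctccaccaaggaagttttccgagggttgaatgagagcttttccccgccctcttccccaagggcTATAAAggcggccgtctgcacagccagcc
Il7r, chr15:9529877-9530126, minus strand: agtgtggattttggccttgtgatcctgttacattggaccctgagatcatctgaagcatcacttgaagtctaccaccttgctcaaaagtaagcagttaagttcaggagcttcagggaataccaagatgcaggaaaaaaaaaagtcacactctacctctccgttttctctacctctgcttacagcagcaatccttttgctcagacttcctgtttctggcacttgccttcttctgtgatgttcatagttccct

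GGGNNNNNCC matched 4 times before Lif, 1 time before Tnf and 0 times before Il7r. The same pattern occurred in 45.8% of the 32851 promoter windows of that length, and TATAAA, which matched before Tnf, in 12.4%. Altogether 5 motifs were searched. A narrower NF-kB pattern, GGGNNNTTCC, was added after the matches of the broader one had been seen; it occurred in 4.65% of windows and matched 0 times before Lif, Tnf or Il7r. The E-box CACGTG (6.02% of windows) and the muscle factor motif of MEF2 (0.508%) also matched 0 times in these windows. The RefSeq starts of Lif and Il7r differ from the gene spans given above. By those spans the Il7r window lies inside the gene, and the Lif window runs slightly past its start. A match describes letters only.

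The sign of the cytokine list changed without LPS replicate 2. The pro-inflammatory cytokine list held 17 genes, of which 14 were tested. Il10, an anti-inflammatory cytokine on the list, was not among those tested. Of the 14, 0 passed, 11 had lower estimates and the median difference was -0.69, against 0.03 for all genes. Without LPS replicate 2 the median was 0.16 and 9 of the 14 were higher. With all libraries, 4 of the 14 were lower without overlap (4.02% of all genes) and 1 was higher (3.99%). Besides Lif, the lower ones were Csf2, Il6 and Il1a, named after their values were seen. Without LPS replicate 2 their differences were -0.21, -0.40 and -0.37. The neutrophil-attracting chemokines (8 tested) had a median of -0.70, and 0.08 without that library. Their member Ccl4 had 4.98, 3.78 and 6.71 FPKM in LPS plus PD, against 5.81, 124 and 6.00 FPKM in LPS. For Ccl4, LPS replicates 1 and 3 lay inside the range of LPS plus PD.

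The same held for sensing and feedback genes. All 20 endotoxin sensing and inflammasome genes had lower estimates in LPS plus PD (median -0.39), but 12 of 20 had higher ones without LPS replicate 2 (median 0.10). Ly96, the MD-2 co-receptor of TLR4, had 3.90, 2.68 and 3.72 FPKM in LPS plus PD, against 4.63, 7.85 and 3.08 FPKM in LPS. Of 20 NF-kB feedback and TNF signalling genes, 16 had lower estimates (median -0.21), and 17 had higher ones without that library (median 0.18). Birc3, an inhibitor of apoptosis induced by NF-kB, had 22.5, 16.1 and 16.9 FPKM in LPS plus PD, against 18.7, 53.5 and 17.5 FPKM in LPS.

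Markers of infiltrating cells were also highest in LPS replicate 2. For the 20 neutrophil markers the mean log2 level above control was 2.29, 2.57 and 2.96 in LPS plus PD, against 2.09, 4.58 and 2.03 in LPS. The median difference was -0.32, and 0.53 without LPS replicate 2. Il1r2, a decoy receptor of IL-1 on neutrophils, had 5.66, 10.9 and 7.24 FPKM in LPS plus PD, against 9.26, 40.8 and 7.64 FPKM in LPS. The 15 monocyte and recruited macrophage markers had a median of -0.29, and 0.28 without that library. In whole lung, fewer cells of a type and less RNA per cell cannot be told apart.

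For interferon-stimulated genes, LPS plus PD lay between the LPS libraries. The mean log2 level of 28 such genes above control was 2.13, 1.68 and 1.75 in LPS plus PD, against 0.86, 3.62 and 0.27 in LPS. LPS replicates 1 and 3 lay below all LPS plus PD libraries and replicate 2 above them. The median difference was 0.34, with 22 higher estimates, and 1.31 without LPS replicate 2, with all 28 higher. Bst2, the virus-tethering membrane protein, had 336, 263 and 407 FPKM in LPS plus PD, against 151, 292 and 136 FPKM in LPS, a difference of 0.86 ± 0.32 (SE), and 1.20 without LPS replicate 2. Irf7, the interferon regulatory factor, had 156, 40.9 and 94.5 FPKM in LPS plus PD, against 21.6, 102 and 26.3 FPKM in LPS. No member of the list passed the adjusted test and none was free of overlap.

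**Figure D2:**
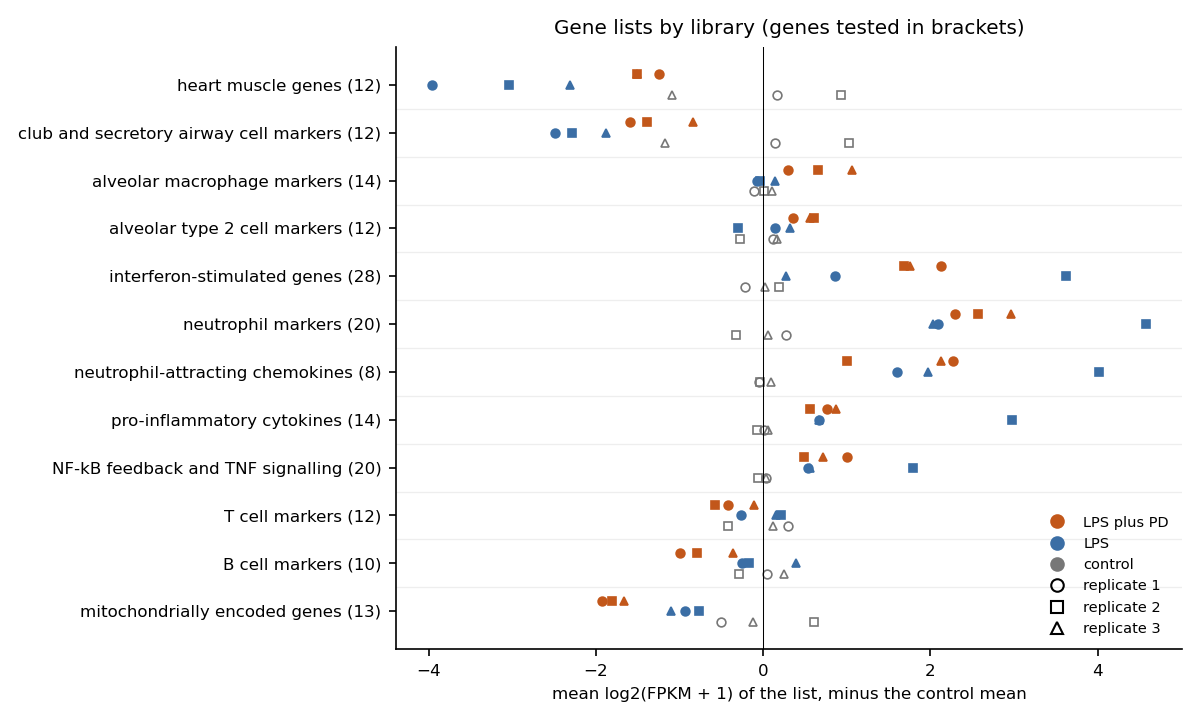
Mean log2(FPKM + 1) of the genes of 12 lists in each library, minus the mean of the control libraries (x axis); rows are lists with the number of genes tested, colours the groups and symbols the replicates. LPS replicate 2 lies to the right of all other libraries for the interferon, neutrophil, chemokine, cytokine and NF-kB lists, while heart muscle genes are higher, and mitochondrially encoded genes lower, in every LPS plus PD library than in every LPS library.

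The list medians of alveolar type 2 cell, alveolar macrophage, club cell, B cell and T cell markers kept their sign without LPS replicate 2. Others did not: the median of ciliated cell markers went from 0.35 to -0.12 without that library. That of endothelial cell markers went from 0.36 to -0.07, and that of NK and cytotoxic cell markers from -0.15 to 0.19. For alveolar type 1 cell markers it fell from 0.22 to 0.01. All 12 alveolar type 2 cell markers had higher estimates in LPS plus PD, the libraries of 6 did not overlap (3.99% of all genes were higher in this way), and the median was 0.44 (0.34 without LPS replicate 2). Abca3, the lipid transporter of lamellar bodies, had 47.2, 41.5 and 37.2 FPKM in LPS plus PD, against 32.8, 26.8 and 33.8 FPKM in LPS. Its difference was 0.42 ± 0.14 (SE). Sftpa1 had 1018, 1140 and 1124 FPKM in LPS plus PD, against 709, 517 and 916 FPKM in LPS.

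Of 14 alveolar macrophage markers tested, 13 had higher estimates and the libraries of 3 did not overlap (background 3.99%; median 0.64, and 0.53 without LPS replicate 2). Ear1, an eosinophil-associated ribonuclease made by these cells in mice, had 8.69, 9.33 and 22.7 FPKM in LPS plus PD, against 1.81, 3.33 and 3.19 FPKM in LPS and 4.31, 7.68 and 8.73 FPKM in control. Its reads can be shared with the overlapping copy Ear-ps9, so its level is uncertain. Atp6v0d2, a proton pump subunit of macrophages, had 13, 15.5 and 13.4 FPKM in LPS plus PD, against 10.1, 8.94 and 8.20 FPKM in LPS. For the 12 club and secretory airway cell markers all estimates were higher (median 1.03, and 0.75 with 9 higher without LPS replicate 2), and the libraries of 3 did not overlap (background 3.99%). The summed level of this list did overlap between the groups. It was 13319, 16101 and 25206 FPKM in LPS plus PD, against 31588, 5470 and 15704 FPKM in LPS. LPS replicate 1 thus held the highest sum of the libraries compared, so the most abundant transcripts did not follow the median.

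B cell and T cell markers had lower estimates. All 10 B cell markers tested were lower in estimate (median -0.60, and -0.78 without LPS replicate 2), 2 of them without overlap (background 4.02%). Ighd, the heavy chain of IgD on naive B cells, had 1.58, 4.13 and 5.40 FPKM in LPS plus PD, against 11.7, 12.3 and 12.7 FPKM in LPS and 13.9, 7.87 and 13.1 FPKM in control. Its difference was -1.59 ± 0.33 (SE). Fcrla, a B cell Fc receptor-like protein, had 0.496, 0.906 and 0.985 FPKM in LPS plus PD, against 1.48, 3.16 and 3.81 FPKM in LPS. All 12 T cell markers were lower in estimate too (median -0.36, and -0.28 without LPS replicate 2). With pseudocounts of 0.1 and 0.01 that median was -0.67 and -0.75. Cd5, a surface protein of T cells, had 0.307, 0.529 and 0.856 FPKM in LPS plus PD, against 0.955, 1.55 and 1.66 FPKM in LPS. Btla, an inhibitory receptor of lymphocytes, had 0.779, 1.79 and 1.52 FPKM in LPS plus PD, against 3.77, 4.68 and 3.56 FPKM in LPS.

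Among stress-response lists, 4 of 16 Nrf2 antioxidant targets were lower in LPS plus PD without overlap (background 4.02%) and 0 were higher. The median was -0.13, and -0.24 without LPS replicate 2. Slc7a11, the cystine importer, had 2.60, 2.73 and 2.42 FPKM in LPS plus PD, against 5.73, 10.0 and 4.58 FPKM in LPS. Its difference was -1.06 ± 0.29 (SE), and -0.77 without LPS replicate 2. Gclc, which starts glutathione synthesis, had 49.3, 44.5 and 40.7 FPKM in LPS plus PD, against 65.6, 54.9 and 68.7 FPKM in LPS. Of 16 glucocorticoid-responsive genes, 2 were higher without overlap (background 3.99%): Cebpd, a transcription factor, differed by 0.70 ± 0.22 (SE) and Dusp1, a MAP kinase phosphatase, by 0.51 ± 0.22 (SE). Without LPS replicate 2 these were 0.55 and 0.30, and the list's median was -0.06 with all libraries.

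Heart muscle genes had the largest median difference of the 47 lists. Of 12 tested, 11 were higher in every LPS plus PD library than in every LPS library (background 3.99%), with a median difference of 1.70 (1.82 without LPS replicate 2; 2.53 with a pseudocount of 0.1), and 0 passed the adjusted test. Their summed level was 282, 276 and 215 FPKM in LPS plus PD, against 94.4, 102 and 165 FPKM in LPS and 713, 1218 and 315 FPKM in control. Actc1, the gene among them that overlapped between the groups, made up most of the sum in each LPS library. Tcap, a sarcomere protein, had 40.9, 15.1 and 24.9 FPKM in LPS plus PD, against 1.39, 1.32 and 8.55 FPKM in LPS and 43.2, 49.7 and 27.7 FPKM in control. Its difference was 2.79 ± 0.56 (SE; 95% interval 1.52 to 4.06). Csrp3, a muscle LIM protein, had 5.25, 3.01 and 4.53 FPKM in LPS plus PD, was listed at 0 in LPS replicate 1 and had 0.270 and 2.07 FPKM in the other LPS libraries. Actc1, the cardiac actin, was the exception and overlapped: it had 49.2, 129 and 36.7 FPKM in LPS plus PD, against 83.9, 56.6 and 90.4 FPKM in LPS. Control libraries held these transcripts too, for instance Csrp3 at 13, 17.1 and 6.18 FPKM. Nppa, the atrial natriuretic peptide, was listed at 0 in LPS replicates 1 and 2. Of the 12 genes, 10 had a promoter window and 0 of these held the MEF2 motif.

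Among the 12 higher genes with the smallest p, 4 more are expressed in striated muscle: Cox7a1, a cytochrome oxidase subunit of heart and skeletal muscle; Fabp3, the heart fatty acid binding protein; Hfe2, or hemojuvelin; and Mybphl, a myosin-binding protein. Fabp3 and Mybphl overlap genes on the opposite strand. Cox7a1 had 5.18, 6.03 and 9.45 FPKM in LPS plus PD, against 0.896, 1.23 and 1.85 FPKM in LPS and 16, 31.8 and 11.4 FPKM in control. These values moved with the heart muscle list, and the part of the amount of heart tissue in each sample was not tested.

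The other higher genes were of several kinds. Sumo2, a ubiquitin-like modifier, had 30.2, 46.0 and 47.8 FPKM in LPS plus PD, against 11.5, 11.6 and 14.6 FPKM in LPS. Its difference was 1.62 ± 0.32 (SE; 95% interval 0.89 to 2.36; limma adjusted p = 0.811). Tmem221, a membrane protein, had 9.61, 9.90 and 12.2 FPKM in LPS plus PD, against 2.20, 1.11 and 1.56 FPKM in LPS. Trim5, a restriction factor family member, had 2.20, 5.70 and 3.25 FPKM in LPS plus PD, against 0.0649, 0.125 and 0.0158 FPKM in LPS. Control libraries of Trim5 were at 1.67, 0.0518 and 1.71 FPKM, so one of them resembled LPS. Irx1, a homeobox factor, Hist2h3c2, a histone H3 gene, and Fbxo6, a ubiquitin ligase subunit for glycoproteins, differed by 0.84 ± 0.21, 1.22 ± 0.31 and 0.43 ± 0.11 (SE). Sumo2 and Hist2h3c2 have near-identical copies and Trim5 shares an exon with Gm24846, so reads may be split and these levels are uncertain.

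**Figure D3:**
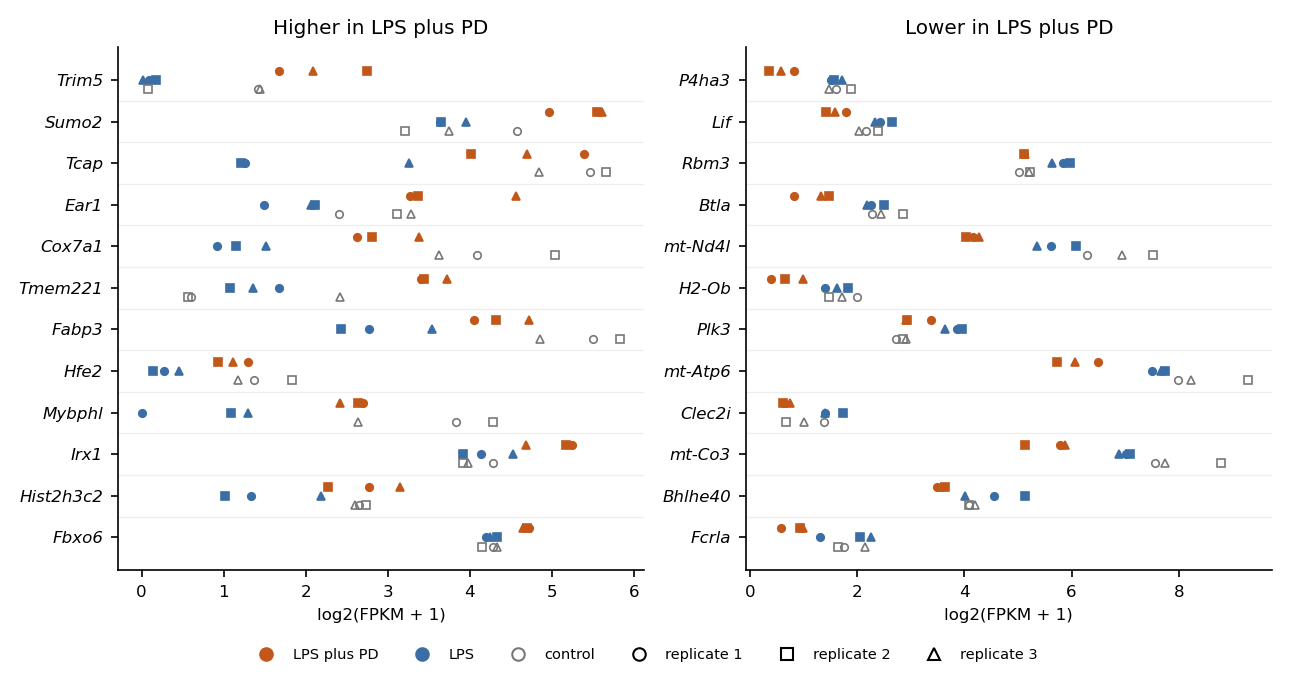
log2(FPKM + 1) (x axis) in every library of the 12 genes with the smallest p that were higher (left) and the 12 that were lower (right) in LPS plus PD; colours are groups and symbols replicates. The orange LPS plus PD points do not overlap the blue LPS points for any of the 24 genes, which were chosen by p from these same libraries. Over all genes, 3.99% were higher and 4.02% lower without overlap.

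Among the 12 lower genes, P4ha3 had the smallest p. P4ha3, a collagen prolyl 4-hydroxylase subunit (chromosome 7, 100285520 to 100319699, plus strand), had 0.773, 0.291 and 0.499 FPKM in LPS plus PD, against 1.87, 1.99 and 2.29 FPKM in LPS and 2.05, 2.70 and 1.77 FPKM in control. Its difference was -1.01 ± 0.17 (SE; 95% interval -1.39 to -0.63; limma adjusted p = 0.811). Rbm3, a cold-inducible RNA-binding protein, had 33.4, 33.5 and 34.0 FPKM in LPS plus PD, against 56.2, 61.3 and 48.7 FPKM in LPS and 31.6, 36.2 and 36.0 FPKM in control. Bhlhe40, a clock and immune transcription factor, had 10.3, 11.5 and 10.8 FPKM in LPS plus PD, against 22.6, 34.2 and 15.1 FPKM in LPS. For Rbm3 the LPS plus PD values lay close to those of control, and for P4ha3 they lay below all control values. Plk3, a stress kinase, Clec2i, a lectin-like ligand, and H2-Ob, an MHC class II chaperone subunit of B cells, differed by -0.74 ± 0.16, -0.84 ± 0.20 and -0.94 ± 0.21 (SE). Rbm3, Plk3 and Bhlhe40 overlap genes on the opposite strand, and the sources used here do not say whether counting used strand.

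The mitochondrially encoded genes were lower in LPS plus PD as a list. All 13 had lower estimates, 8 without overlap (background 4.02%), and the median difference was -0.66 (-0.59 without LPS replicate 2). They took 3.18%, 4.85% and 4.02% of all FPKM in LPS plus PD, against 5.94%, 6.73% and 4.77% in LPS and 7.58%, 13.8% and 10.4% in control. The libraries overlapped on that share. The 6 adjacent genes from mt-Co2 to mt-Nd4l, which encode subunits of cytochrome oxidase, ATP synthase and complex I, differed by -0.79 to -1.53, against -0.41 to -0.66 for the other 7. Each of these 6 was among the 8 without overlap. These 6 are also the 6 of lowest level. Position, level and any sharing of reads with the nuclear copy described below therefore cannot be told apart. For example mt-Atp6 had 89.1, 52.1 and 65.9 FPKM in LPS plus PD, against 179, 212 and 201 FPKM in LPS. The level of mt-Co1 was higher, at 3655, 5243 and 4744 FPKM in LPS plus PD, against 6315, 6636 and 5314 FPKM in LPS.

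**Figure D4:**
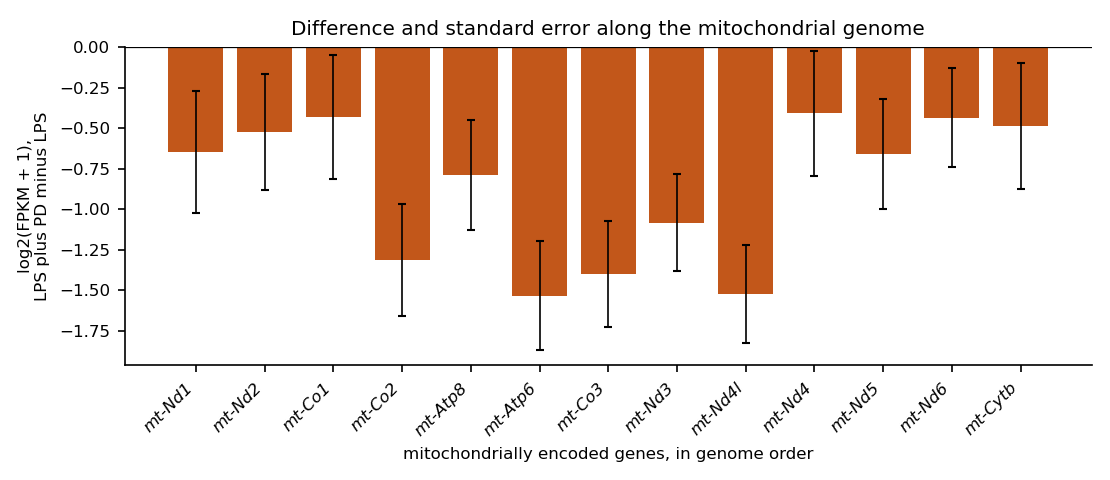
Difference between LPS plus PD and LPS on the log2(FPKM + 1) scale (y axis) for the 13 mitochondrially encoded genes in genome order; bars are estimates and error bars standard errors (3 libraries per group). The bars from mt-Co2 to mt-Nd4l reach -0.79 to -1.53, further below 0 than the others.

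A known nuclear copy of part of the mitochondrial genome lies on mouse chromosome 1, and 7 genes annotated there, between 24611535 and 24616197 (GRCm38), were themselves tested. Their differences lay between -0.41 and -1.35. Gm10925, for instance, had 65.0, 46.4 and 77.1 FPKM in LPS plus PD, against 143, 175 and 158 FPKM in LPS. Reads of near-identical sequence can be split between the copies and the mitochondrial genes, so the levels of both are uncertain, and the part of that split in the differences was not tested.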

How the data were processed

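Lung RNA was sequenced in 9 libraries, and the authors deposited 1 table of gene FPKM, with no counts. The tools HISAT2, StringTie, FastQC and bcl2fastq and the build GRCm38 are named per the submitters' processing notes, without versions. Gene IDs matched GENCODE M21 for 99.8%. Here, genes averaging 0.5 FPKM or more were tested with limma 3.58.1 in R 4.3.3 on log2(FPKM + 1), with 1 mean per group over all 9 libraries, a variance trend and Benjamini-Hochberg adjustment (threshold 0.05). Fold changes on this scale understate the change of low genes. No other differential expression tool was run. The test was checked on simulated data in which a gene had the same spread in every library. That check therefore did not cover an outlying library such as LPS replicate 2. The genes named are the 12 higher and 12 lower with the smallest unadjusted p at a mean FPKM of at least 1 (without predicted genes, pseudogenes and receptor segments), the 5 title genes and the 2 members of each list with the smallest p; Ighd is among the latter. Actc1, Nppa, Reg3g, Csf2, Il6, Il1a, Gm10925, mt-Co1 and H2-Eb1 were chosen after their values were seen. The comparison and the 47 gene lists were chosen with earlier results of these data known. Promoter windows came from RefSeq (GRCm38.p6), 250 bases before the start; 19 of the 29 main named genes had one. Of the 5 motifs searched, the narrower NF-kB pattern was added after the first search. Alternatives covered the pseudocount, filter, scaling, weights, block and leaving out each library.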

Additional observations from a re-analysis of the deposited data

How the results depend on the processing

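The number of genes past the adjusted threshold was 0 in 18 of 21 alternatives. It was 1 with median-ratio scaling and 1 with quantile normalization (Gm24391 in both), and 2 with array weights (Gm24391 and Gm16464). Leaving out any 1 library gave 0 to 0 genes; at an unadjusted p under 0.05 it gave 455 genes (without LPS plus PD replicate 3) to 1759 (without LPS replicate 3), against 653 with all. The fit with a replicate block gave 0 genes (723 at an unadjusted p under 0.05). The deviations of same-numbered libraries correlated at -0.183, 0.092 and 0.192, and those of differently numbered ones at -0.212 to 0.091. With so few libraries, these values cannot decide whether the numbers pair them. Rescaling without the mitochondrially encoded genes, an alternative chosen after seeing the data, also gave 0 genes. Of the values of 109 genes under these alternatives, 2240 kept their direction and 17 reversed, and the cause was not tested. The 2240 include settings in which the estimate could not change. These were the filters, the fit without control libraries, no variance trend, the block and leaving out 1 control library. With array weights the differences were 0.048 for Tnfrsf1a, -0.049 for Il7, 0.21 for Tnfrsf1b, 0.52 for Sele, 0.54 for Cd1d1, 0.071 for Klrk1 and 0.40 for Il2rg. Leaving out 1 library at a time gave ranges of -0.12 to 0.038 for Tnfrsf1a, -0.056 to 0.15 for Il7, -0.86 to 0.072 for Pim1, -1.11 to 0.41 for Sele, -0.43 to 0.37 for Cd1d1, -1.96 to 0.13 for Clec4e, -0.60 to 0.34 for Il2rg, -0.76 to 0.016 for Birc3 and -0.86 to 0.022 for Socs3. The upper end came without LPS replicate 2 in all of these except Il7, whose lower end came without LPS replicate 3. Cd1d1 was also above 0 without LPS plus PD replicate 2 (0.051). Of the list medians, 961 stayed within the spread and 26 moved. The spread was the standard deviation of a list's level between libraries of the same group, which is wide where LPS replicate 2 stands apart. The pro-inflammatory cytokine list, at -0.69 and at 0.16 without LPS replicate 2, therefore counted as staying although its sign changed. Settings in which no estimate could change are counted here too. With 3 libraries per group, a median standard error of 0.20 (log2) limits what can be seen.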

Other observations

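The smallest p of all genes tested belonged to short or non-coding genes that the rule for named genes leaves out. Gm24391, annotated as a small nuclear RNA, was listed at 0 in all LPS plus PD and control libraries and had 2.35, 1.29 and 1.71 FPKM in LPS. Gm16464, a processed pseudogene, had 2.58, 1.61 and 1.76 FPKM in LPS plus PD, against 0.219, 0.360 and 0.266 FPKM in LPS. Gm25154, annotated as a ribosomal RNA, had 0.970, 1.53 and 2.63 FPKM in LPS plus PD and was listed at 0 in LPS and control. Gm24391 (chromosome 6, 120524897 to 120524998) and Gm25154 (chromosome 5, 65136302 to 65136420) are very short. At the estimated depths their values stand for only a few reads per library, so the contrast with 0 is uncertain.

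H2-Eb1, an MHC class II chain, varied widely within the LPS and control groups. It had 2.73, 3.24 and 2.95 FPKM in LPS plus PD, against 4.86, 9.82 and 41.6 FPKM in LPS and 55.0, 2.63 and 4.40 FPKM in control.

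Among airway genes, Reg3g, a secreted antibacterial lectin, had 64.1, 28.3 and 75.5 FPKM in LPS plus PD, against 2.30, 42.0 and 17.9 FPKM in LPS and 91.0, 310 and 14.1 FPKM in control. Bpifb1, a secreted airway defence protein, had 26.4, 21.5 and 24.7 FPKM in LPS plus PD, against 1.71, 13 and 11.6 FPKM in LPS. The 16 endothelial cell markers had a median difference of 0.36 with 13 higher estimates, and of -0.07 with 7 higher without LPS replicate 2. Among them Aplnr, the apelin receptor, had 33.6, 10.9 and 33.3 FPKM in LPS plus PD, against 9.46, 2.47 and 24.4 FPKM in LPS. Ccl21a, a lymphatic chemokine with near-identical gene copies that can share its reads, had 41.6, 7.72 and 8.16 FPKM in LPS plus PD, against 4.02, 2.12 and 3.48 FPKM in LPS.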
